A study of Mus musculus with 39 samples.

Results

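Sarcomere and fiber genes of skeletal muscle, 51 in number, were chosen by symbol from a table of 20520 genes measured by RNA sequencing of PB2 mouse breast tumors. The tumors carried either FL-HER2, the full-length HER2 receptor, or p95HER2, a truncated HER2 that lacks most of the extracellular part. All were collected after implantation, at day 10 or day 22. The groups are FL-HER2 day 10 (10 libraries), FL-HER2 day 22 (9 libraries), p95HER2 day 10 (10 libraries) and p95HER2 day 22 (10 libraries). The sources used here do not give the promoter of the constructs, the clonal state of the cells, or the strain, sex and age of the hosts. All 51 genes were found, and 50 passed the filter for testing (at least 1 count per 1000000 reads, CPM, in at least 9 libraries). Pax7 did not pass it.

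The sarcomere is the contractile unit of a muscle fiber, in which myosin filaments pull on actin filaments when calcium binds to troponin. Mouse muscles hold fast fibers, which use the myosin heavy chains Myh4, Myh1 and Myh2, and slow fibers, which use Myh7. Myh3 and Myh8 are the embryonic and perinatal myosin heavy chains, which regenerating fibers use again. Pax7 marks muscle stem cells, Myod1 and Myog drive their differentiation, and Cdh15 encodes M-cadherin, an adhesion protein of myoblasts and muscle stem cells.

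The fast myosin Myh4, the actin Acta1, the regulator Myog, and Cdh15 stand for the different patterns described below. Cdh15 was not lower with the others in p95HER2 day 10. Promoter sequences are shown for these genes. Each is the 250 bases before the RefSeq gene start on GRCm38.p6, written 5′ to 3′ on the gene's strand. Capitals mark matches to the E-box CANNTG, the kind of site that MyoD family factors bind, to the CArG box of serum response factor, and to the MEF2 site. Each motif reads alike on both strands.
Myh4, chr11:67237562-67237811, plus strand: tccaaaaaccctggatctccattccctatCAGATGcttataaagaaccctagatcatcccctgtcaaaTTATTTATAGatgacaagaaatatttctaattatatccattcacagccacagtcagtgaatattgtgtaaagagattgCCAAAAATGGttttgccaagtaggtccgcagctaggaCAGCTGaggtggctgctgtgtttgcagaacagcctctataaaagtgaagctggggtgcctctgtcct
Acta1, chr8:123894776-123895025, minus strand: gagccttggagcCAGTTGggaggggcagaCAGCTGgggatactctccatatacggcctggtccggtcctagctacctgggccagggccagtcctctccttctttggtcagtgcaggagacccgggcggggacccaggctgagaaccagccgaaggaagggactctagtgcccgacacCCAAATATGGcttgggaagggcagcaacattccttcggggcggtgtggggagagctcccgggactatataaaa
Myog, chr1:134289754-134290003, plus strand: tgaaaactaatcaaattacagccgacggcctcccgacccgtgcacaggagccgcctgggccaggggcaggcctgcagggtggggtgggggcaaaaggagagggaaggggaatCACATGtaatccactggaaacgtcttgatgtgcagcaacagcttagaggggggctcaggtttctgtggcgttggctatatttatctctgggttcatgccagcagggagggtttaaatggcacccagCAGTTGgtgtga
Cdh15, chr8:122848124-122848373, plus strand: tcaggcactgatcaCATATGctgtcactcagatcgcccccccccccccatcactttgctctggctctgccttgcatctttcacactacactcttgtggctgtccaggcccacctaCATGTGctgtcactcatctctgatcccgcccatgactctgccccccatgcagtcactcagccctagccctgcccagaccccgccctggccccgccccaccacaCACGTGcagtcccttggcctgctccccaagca

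Of the 51 genes, 41 had a promoter in the RefSeq table. A muscle gene was counted if any of its promoters held the motif, while the background share is over single promoters. The shares thus differ in unit, which can raise those of the muscle genes. An E-box was found in 35 of the 41 (85.4%), against 66.2% of all 32851 promoters of the same length. A CArG box was found in 6 (14.6%, against 1.47%), and a MEF2 site in 9 (22.0%, against 2.92%). Myh4 held 2 E-boxes, 1 CArG box and 1 MEF2 site, Acta1 held 2 E-boxes and 1 CArG box, and Myog and Cdh15 held 2 and 3 E-boxes. These are matches of letters in this window and do not show binding.

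The libraries held 21772259 to 44427621 recovered reads. Skin markers were high in 11 libraries, with a mean log2 value over 5 tested skin genes of 6.24 to 10.7, against 2.55 to 4.27 in the other 28. These were replicates 7 and 10 of FL-HER2 day 10, replicate 7 of FL-HER2 day 22, replicates 2, 3, 7, 8 and 9 of p95HER2 day 10 and replicates 3, 4 and 10 of p95HER2 day 22. The number in the name of a library's column, used for the digits term below, has 3 digits, except in FL-HER2 day 10, where that of 8 libraries has 5. For 1 of these 8, replicate 8, the labels conflict, since the number in its title lacks the last digit of the number in its column. Whether each tumor is from its own animal is not stated, so that the p-values measure only how these samples vary, which may be technical. The summed level of 9 epithelial markers was 1927 to 2962 CPM over all 39 libraries.

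Muscle RNA had its highest level in FL-HER2 tumors at day 10. The 51 genes together took 0.0612% of the reads in the lowest FL-HER2 day 10 library, 2.04% in the median and 4.45% in the highest. At day 22 the FL-HER2 libraries held 0.0346%, 0.269% and 1.1% in the same order. The p95HER2 libraries held 0.00681%, 0.0307% and 1.23% at day 10, and 0.00322%, 0.281% and 0.708% at day 22. The groups overlapped, with the lowest FL-HER2 day 10 library below the highest p95HER2 libraries. Among the p95HER2 day 10 libraries, replicates 1, 5, 6 and 10 held 0.704% to 1.23%, and the other 6 held no more than 0.0413%. Of those 6, 5 had high skin markers, and the remaining one, replicate 4, held 0.0144%. In FL-HER2 day 10 the 8 libraries without high skin markers held 1.04% to 4.45%, while replicate 7 held 1.33% and replicate 10 held 0.0612%. Within FL-HER2 day 10 the libraries with 3-digit numbers held 1.33% and 2.54%, inside the range of those with 5 digits. The part of skin and of the tumor numbers in the muscle levels was not tested. In bulk tumor RNA, fewer muscle cells and less muscle RNA per cell cannot be told apart.

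**Figure D1:**
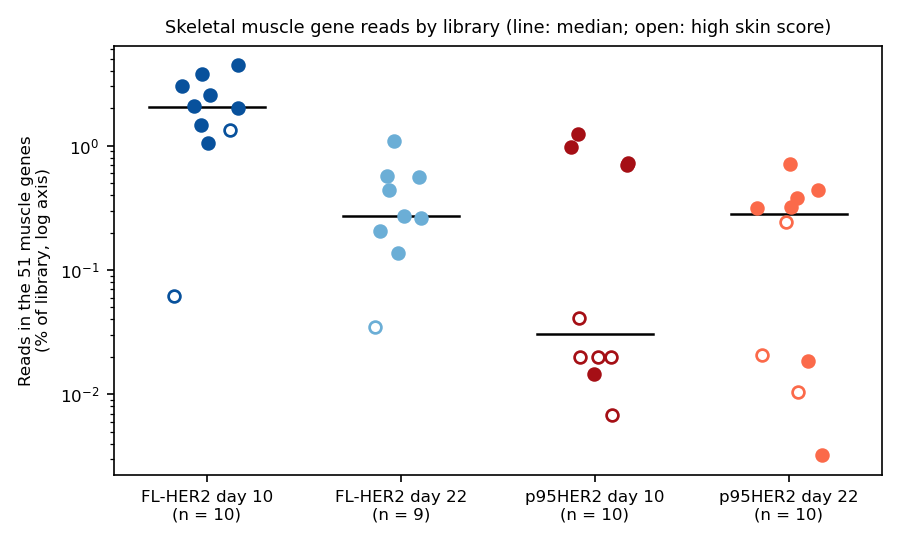
Share of each library's reads in the 51 skeletal muscle genes (log axis), by group, with 1 point per library and a line at the median. Open points are libraries with high skin markers. The median was 2.04% in FL-HER2 day 10 and 0.0307% in p95HER2 day 10, where 4 points lie at 0.704% or above and 6 at 0.0413% or below.

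At day 10, 47 of the 50 tested genes were lower in p95HER2 than in FL-HER2 tumors, where 26.1% of all 13650 tested genes were called lower. Of the 50, 1 was higher, where 15.2% of all genes were (41.3% in either direction). The median log2 change of the 50 genes was -3.86, against -0.04 over all tested genes. The gene that was higher was Cdh15, and the genes that did not pass were Myh3 and Myh8. No gene of the 50 had groups that did not overlap, which 1.42% of all tested genes had with p95HER2 lower and 1.43% with p95HER2 higher. Without the 11 libraries with high skin markers, 12 genes were called, all lower (Actc1, Casq2, Ckmt2, Eno3, Ldb3, Mb, Mylpf, Myom1, Popdc2, Pygm, Slc2a4 and Tnnc1), where 19.5% of all genes were lower and 9.74% higher, and the median was -2.49. With a term for the digits of the column number, which rests on replicates 7 and 9 of FL-HER2 day 10, 3 genes were called lower (Ldb3, Mb and Slc2a4), where 6.18% of all genes were lower and 3.89% higher, and the median was -4.16.

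**Figure D2:**
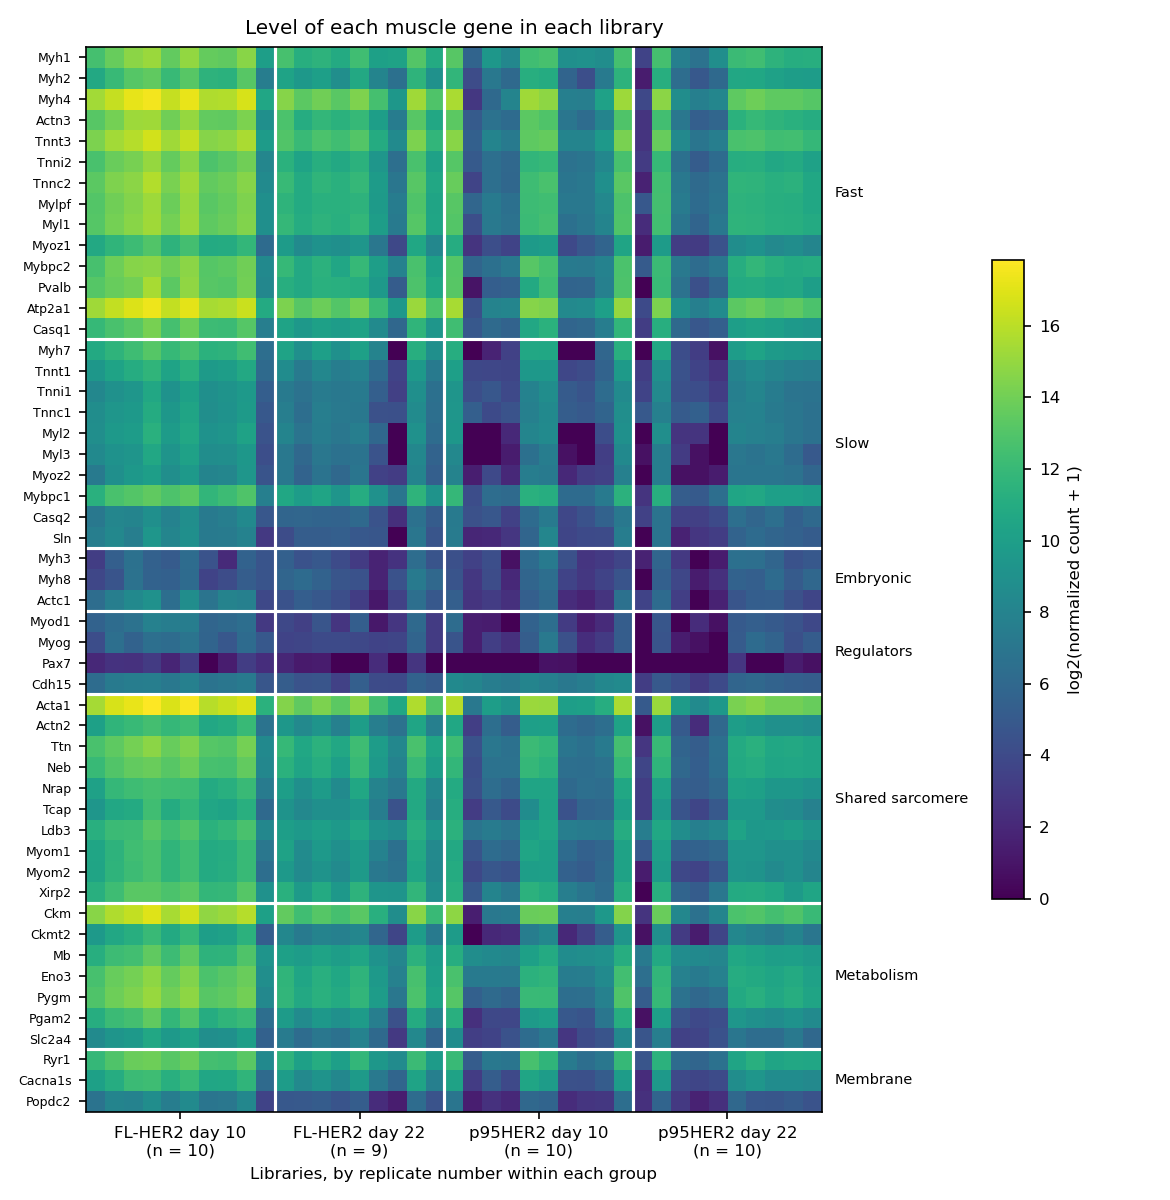
Level of each of the 51 genes in each of the 39 libraries, grouped by role and by construct and day. In p95HER2 day 10 most genes are high in replicates 1, 5, 6 and 10 and low in the other 6, while Cdh15 lies between 4.90 and 12.4 CPM in all 10.

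All 14 fast fiber genes were lower in p95HER2 tumors at day 10, with log2 changes of -5.53 to -3.56 (median -4.52). Myh4, the myosin heavy chain of the fastest fibers, was at 2676 (53.9 to 5998) CPM (median, with the lowest and highest library in parentheses, here and for all CPM levels that follow) in FL-HER2 day 10 and at 389 (25.1 to 1425) CPM in FL-HER2 day 22. In p95HER2 it was at 24.6 (0.227 to 1634) CPM at day 10 and at 354 (0.507 to 995) CPM at day 22. The highest p95HER2 libraries lay above the lowest FL-HER2 libraries, and the day 10 log2 change ± SE of Myh4 was large against its error (-5.53 ± 1.38, adjusted p = 0.00146). Myh1, the next fast chain, had the smallest change of the fast genes. It was at 437 (37.5 to 1161) CPM in FL-HER2 day 10, 85.9 (41.5 to 302) in FL-HER2 day 22, 21.3 (1.85 to 325) in p95HER2 day 10 and 81.8 (0.395 to 221) in p95HER2 day 22, with overlapping groups (day 10 log2 change -3.56 ± 0.92, adjusted p = 0.00217). Myh2, used by fast oxidative fibers, was at 136 (6.76 to 359), 26.1 (3.42 to 108), 5.17 (0.585 to 116) and 34.4 (0.0564 to 83.0) CPM in the same order of groups (-3.82 ± 1.09, adjusted p = 0.00473). These genes lie with Myh3 and Myh8 in a cluster on chromosome 11, and near-identical stretches could divide reads between them.

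The fast troponins and the calcium pump had changes of like size. Tnnt3, the troponin T that holds the complex on the thin filament, had the highest level per length of the fast genes, a mean of 336 reads per kilobase per 1000000 reads. Its levels were 1345 (32.2 to 3183) CPM in FL-HER2 day 10, 182 (13.1 to 737) in FL-HER2 day 22, 18.2 (1.53 to 889) in p95HER2 day 10 and 166 (0.197 to 477) in p95HER2 day 22 (day 10 log2 change -4.61 ± 1.19, adjusted p = 0.00209). The inhibitory troponin Tnni2 was at 449.9 (10.5 to 1045), 61.1 (3.32 to 236), 7.46 (1.17 to 311) and 50.6 (0.282 to 142) CPM in that order (-4.33 ± 1.10, adjusted p = 0.00172). For both genes the p95HER2 medians were lower at day 10 than at day 22, and all groups overlapped. The calcium-binding troponin Tnnc2 was at 683 (13.3 to 1746), 89.8 (4.53 to 338), 10.6 (0.422 to 449) and 74.4 (0.0845 to 204) CPM (-4.73 ± 1.22, adjusted p = 0.00203). Atp2a1, the pump that returns calcium to the sarcoplasmic reticulum, was at 2490 (68.4 to 5428), 351 (26.6 to 1314), 25.1 (0.714 to 1608) and 288 (0.564 to 743) CPM (-5.04 ± 1.23, adjusted p = 0.00122).

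All 10 slow fiber genes were lower in p95HER2 tumors at day 10, with log2 changes of -5.94 to -2.27 (median -3.72). Myh7, the slow myosin heavy chain, was at 118 (3.12 to 279.5) CPM in FL-HER2 day 10, 17.97 (0 to 81.0) in FL-HER2 day 22, 1.16 (0 to 81.9) in p95HER2 day 10 and 23.4 (0 to 59.3) in p95HER2 day 22. It had no read in 3 p95HER2 day 10 libraries and in 1 library of each day 22 group, so its fitted log2 change (-5.94 ± 1.62, adjusted p = 0.00334) depends on the added count of 1. Tnni1, the slow inhibitory troponin, was at 18.6 (1.42 to 52.8), 4.95 (0.342 to 17.0), 1.92 (0.496 to 20.9) and 3.98 (0.313 to 12.4) CPM in that order (-2.61 ± 0.77, adjusted p = 0.00611). Its groups overlapped, and its p95HER2 day 10 libraries all held reads. Tnnc1, the calcium-binding troponin of slow and cardiac muscle, was at 22.3 (1.05 to 62.7), 5.02 (0.714 to 13.7), 1.67 (0.542 to 22.3) and 4.12 (0.541 to 8.54) CPM (-2.67 ± 0.70, adjusted p = 0.00222). Mybpc1, a myosin-binding protein, had the highest level per length of the slow genes, a mean of 17.96 reads per kilobase per 1000000 reads, and was at 231 (7.29 to 365), 34.2 (4.29 to 112), 4.08 (0.617 to 129) and 35.1 (0.197 to 84.4) CPM (-3.90 ± 1.01, adjusted p = 0.00215). Casq2, a calcium store protein of slow and cardiac fibers, had the smallest change of the slow genes. It was at 8.33 (0.998 to 14.6), 1.97 (0.155 to 3.62), 1.29 (0.358 to 5.51) and 1.81 (0.344 to 3.95) CPM (-2.27 ± 0.57, adjusted p = 0.00160).

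All 10 sarcomere genes shared by both fiber types were lower as well, with log2 changes of -4.39 to -3.18. Acta1, the skeletal actin of the thin filament, had the highest level per length of the genes named, a mean of 901 reads per kilobase per 1000000 reads. Its levels were 3784 (96.5 to 7290) CPM in FL-HER2 day 10, 422 (57.4 to 1868) in FL-HER2 day 22, 58.1 (5.10 to 2102) in p95HER2 day 10 and 531 (1.16 to 1300) in p95HER2 day 22 (day 10 log2 change -4.30 ± 1.13, adjusted p = 0.00228). Ttn, the giant spring protein of the sarcomere, was at 404 (12.6 to 856), 57.7 (11.1 to 234), 4.95 (0.779 to 195) and 53.1 (0.225 to 149) CPM in that order (-4.39 ± 1.07, adjusted p = 0.00115). The groups overlapped for both genes. Ldb3, which anchors proteins at the Z-disc, had the smallest change of this class and the lowest adjusted p of the 50 genes. It was at 152 (10.9 to 292), 28.6 (14.6 to 86.8), 6.58 (4.12 to 94.1) and 24.4 (7.04 to 56.9) CPM (-3.18 ± 0.57, adjusted p = 3.23e-05), so that no library was near 0.

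The 7 metabolic genes and the 3 membrane genes were also all lower at day 10. Ckm, the creatine kinase that buffers ATP in fibers, was at 1661 (40.1 to 3893) CPM in FL-HER2 day 10, 209.7 (15.6 to 937) in FL-HER2 day 22, 16.3 (0.0649 to 976) in p95HER2 day 10 and 188 (0.197 to 508) in p95HER2 day 22 (day 10 log2 change -5.39 ± 1.34, adjusted p = 0.00146). Mb, the oxygen-binding myoglobin, had the smallest change of the metabolic genes, at 159.7 (21.4 to 361), 34.6 (10.4 to 99.3), 16.8 (10.2 to 75.6) and 33.7 (6.09 to 62.7) CPM (-2.51 ± 0.48, adjusted p = 7.91e-05). The spread of Ckm within p95HER2 day 10 was far wider than that of Mb. Cacna1s, the voltage sensor of the fiber membrane, was at 76.3 (2.50 to 159), 12.5 (1.99 to 46.5), 1.26 (0.292 to 47.0) and 13.3 (0.141 to 27.3) CPM (-4.12 ± 1.02, adjusted p = 0.00139). Ryr1, the calcium release channel that it opens, was at 292 (12.8 to 481), 41.6 (14.2 to 161), 5.39 (1.27 to 211) and 49.8 (0.902 to 104) CPM (-3.77 ± 0.94, adjusted p = 0.00141). Popdc2, a membrane protein of skeletal and cardiac muscle, was at 7.07 (0.399 to 13.1), 1.02 (0.0621 to 2.72), 0.208 (0.0649 to 4.05) and 0.888 (0.0859 to 2.38) CPM (-3.44 ± 0.72, adjusted p = 0.000231).

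**Figure D3:**
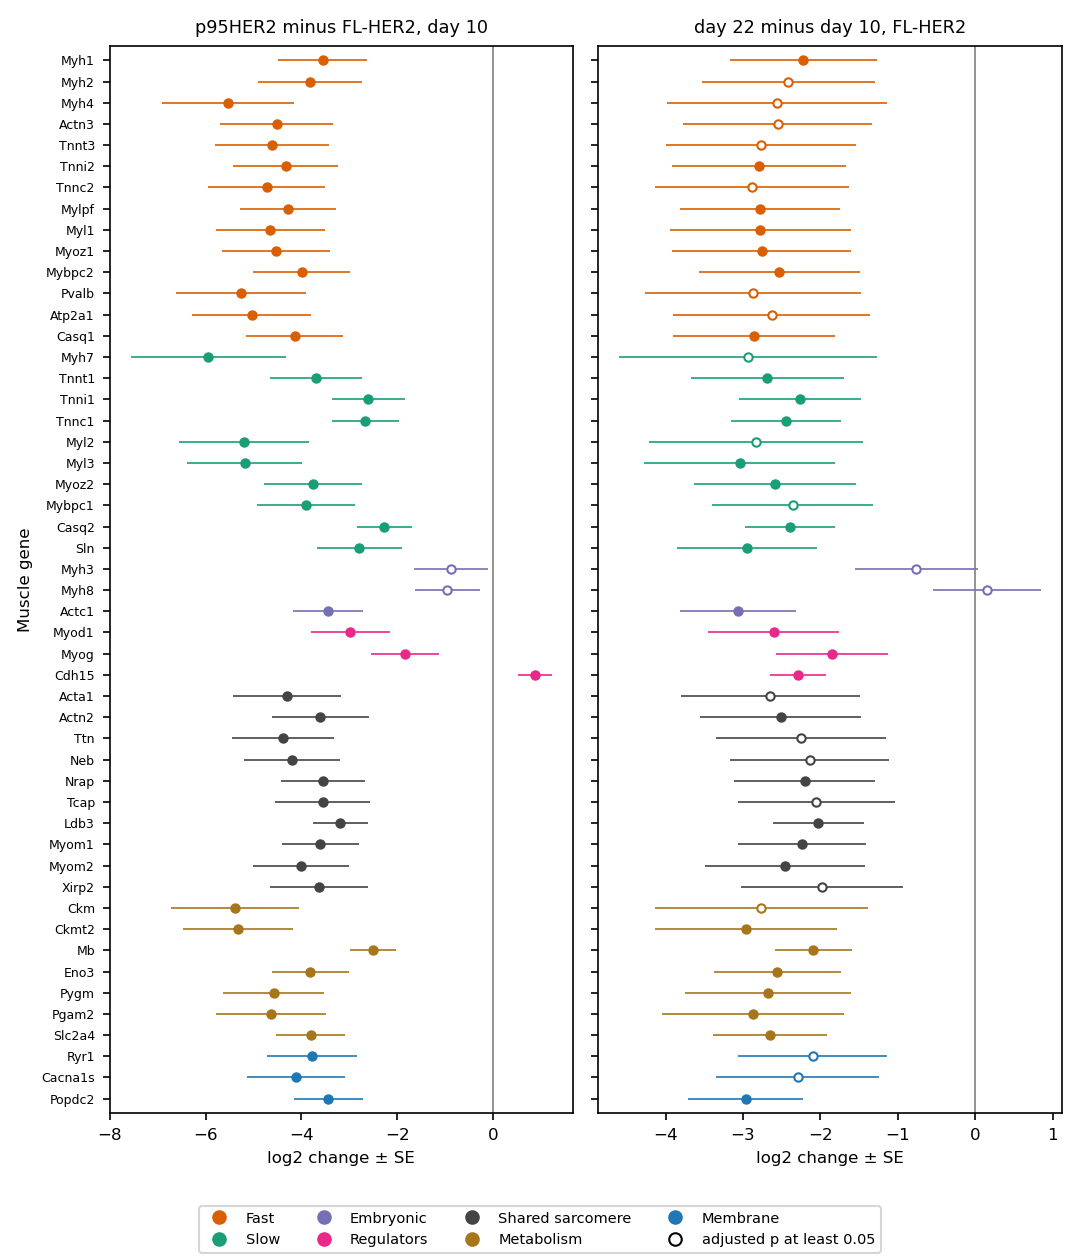
Log2 change ± SE of each of the 50 tested genes, colored by role, for p95HER2 minus FL-HER2 at day 10 (left) and day 22 minus day 10 in FL-HER2 (right). Filled points have an adjusted p under 0.05. On the left Cdh15 is the point above 0, and Myh3 and Myh8 are the open points.

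The embryonic myosins were low throughout. Myh3 was at 1.26 (0.113 to 3.18) CPM in FL-HER2 day 10, 0.783 (0.0919 to 2.89) in FL-HER2 day 22, 0.534 (0.0276 to 5.51) in p95HER2 day 10 and 0.923 (0 to 3.50) in p95HER2 day 22. Myh8 was at 1.06 (0.383 to 3.27), 1.76 (0.0919 to 5.60), 0.490 (0.110 to 3.06) and 1.32 (0 to 2.70) CPM in that order. The groups overlapped for both, and neither the day 10 change of Myh3 (-0.88 ± 0.77, adjusted p = 0.370) nor that of Myh8 (-0.95 ± 0.68, adjusted p = 0.268) passed the test. Actc1, the cardiac actin that developing skeletal fibers also make, was lower in p95HER2 at day 10. It was at 6.83 (0.499 to 16.1), 0.757 (0.0459 to 3.29), 0.240 (0.0851 to 3.49) and 0.582 (0 to 2.69) CPM (-3.45 ± 0.73, adjusted p = 0.000235), and reads can be divided between Actc1 and its close relative Acta1.

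Among the regulators, Myod1 was at 2.74 (0.250 to 7.16) CPM in FL-HER2 day 10, 0.351 (0.0459 to 2.38) in FL-HER2 day 22, 0.198 (0 to 2.91) in p95HER2 day 10 and 0.653 (0 to 1.48) in p95HER2 day 22 (day 10 log2 change -2.98 ± 0.83, adjusted p = 0.00382). Myog was at 2.17 (0.616 to 3.68), 0.459 (0.289 to 1.88), 0.524 (0.0649 to 5.06) and 0.785 (0 to 2.64) CPM in that order (-1.84 ± 0.70, adjusted p = 0.0343). The highest Myog library of p95HER2 day 10 lay above all FL-HER2 libraries. The Myog call ended without the libraries with high skin markers (adjusted p = 0.438) and when any 1 of FL-HER2 day 10 replicates 2, 4, 5 and 6 or p95HER2 day 10 replicates 2, 3, 4, 8 and 9 was left out (adjusted p 0.0515 to 0.0760). Pax7 had at most 10 reads in any library, and was at 0.151 (0 to 0.290), 0.0540 (0 to 0.201), 0 (0 to 0.0286) and 0 (0 to 0.223) CPM. It had no read in 8 of 10 p95HER2 day 10 libraries and in 1 of 10 FL-HER2 day 10 libraries.

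Cdh15 stood apart from the other genes in p95HER2 day 10. It was at 4.87 (0.949 to 7.14) CPM in FL-HER2 day 10, 0.907 (0.338 to 1.75) in FL-HER2 day 22, 7.99 (4.90 to 12.4) in p95HER2 day 10 and 1.23 (0.286 to 2.23) in p95HER2 day 22. All p95HER2 day 10 libraries were above all libraries of both day 22 groups, and they overlapped with FL-HER2 day 10. The share of all genes with such a separation from day 22 is not given here, so it cannot be called particular to Cdh15. The p95HER2 day 10 library with the lowest Ckm, replicate 2, had 10.0 CPM of Cdh15 beside 0.0649 CPM of Ckm. Within p95HER2 day 10, replicates 1 and 10, with most muscle RNA, had the highest Cdh15 (11.7 and 12.4 CPM). Replicates 5 and 6 had 8.93 and 7.06 CPM. Of those with little muscle RNA, replicates 3, 4, 7 and 8 had 4.90 to 6.76 CPM, but replicates 2 and 9 had 10.0 and 10.25 CPM. In FL-HER2 day 10 and p95HER2 day 22 Cdh15 went with muscle RNA. Within FL-HER2 day 10 it was lowest in replicate 10 (0.949 CPM), which had least muscle RNA. It was highest in replicates 4 and 6 (6.26 and 7.14 CPM), which had most. In p95HER2 day 22, replicates 1, 3, 4 and 5, with least muscle RNA, had 0.286 to 0.6435 CPM, and the others had 1.10 to 2.23 CPM. The day 10 difference between constructs was small (log2 change 0.88 ± 0.36, adjusted p = 0.0447). It did not pass without the libraries with high skin markers (0.72, adjusted p = 0.178), with the digits term (adjusted p = 0.484), with a pseudocount of 0.1 (0.0503), with no filter on low values (0.0607), with library weights (0.0548), or when any 1 of FL-HER2 day 10 replicates 1, 5, 7, 8 and 10 or p95HER2 day 10 replicates 1, 2, 5, 9 and 10 was left out (0.63 to 0.89, adjusted p 0.0526 to 0.113). With the mean of the other muscle genes as a covariate it was 2.08 ± 0.28 (adjusted p = 1.13e-06), in a fit that called 4 of the 50 genes higher and 1 lower, where 7.30% and 13.9% of all genes were. Those other muscle genes were themselves lower in p95HER2 day 10. The value thus restates their fall beside the small change of Cdh15, and is not separate support. From day 10 to day 22 Cdh15 fell in both constructs, with log2 changes of -2.29 ± 0.36, adjusted p = 2.19e-06 in FL-HER2 and -3.08 ± 0.36, adjusted p = 5.83e-09 in p95HER2. Across the 39 libraries its Spearman correlation with the mean of the tested muscle genes was 0.457, the lowest of the 50, followed by 0.592 for Myh8 and 0.644 for Myh3. This is a description, since libraries of a group are alike and each gene is part of the mean.

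**Figure D4:**
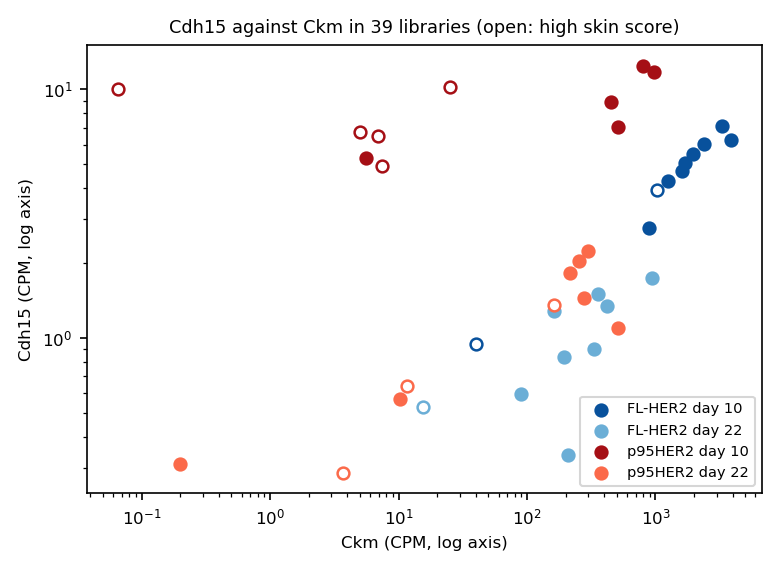
Cdh15 against Ckm in CPM (log axes) in the 39 libraries, by group. The p95HER2 day 10 points lie between 4.90 and 12.4 CPM of Cdh15 over Ckm values from 0.0649 to 976 CPM, and the day 22 points of both constructs lie at 2.23 CPM of Cdh15 or below.

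To compare fiber types within a library, log2 ratios of paired genes were tested by permutation, in libraries with at least 10 reads of both genes and with Benjamini-Hochberg adjustment over 48 tests of 12 pairs. At day 10 the slow troponins were higher relative to their fast partners in p95HER2 than in FL-HER2. The log2 ratio of Tnni1 to Tnni2 was -4.81, -4.46 and -2.86 (lowest, median and highest) in FL-HER2 and -4.08, -2.23 and -0.81 in p95HER2, and the means differed by 1.72 (n = 10 and 10, two-sided permutation test, adjusted p = 0.0138). The ratio of Tnnc1 to Tnnc2 was -5.09, -4.81 and -3.63 in FL-HER2 and -4.50, -2.83 and 1.74 in p95HER2 (difference of means 2.06, n = 10 and 10, permutation test, adjusted p = 0.0138). The groups overlapped in both ratios. The ratio of Tnnt1 to Tnnt3 was -4.99, -4.90 and -3.67 in FL-HER2 and -4.61, -4.04 and -1.58 in p95HER2 (0.92, n = 10 and 10, permutation test, adjusted p = 0.0144). In FL-HER2 day 10, replicate 10, the library with least muscle RNA, had the highest of all 3 ratios. In p95HER2 day 10, replicates 1, 5, 6 and 10, those with most muscle RNA, had Tnni1 to Tnni2 ratios of -4.08 to -3.23, and the other 6 had -2.36 to -0.81. With at least 50 reads of both genes, the differences of Tnni1 to Tnni2 (0.87, permutation test, adjusted p = 0.0760) and of Tnnt1 to Tnnt3 (0.55, adjusted p = 0.0505) did not pass.

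Among the myosins, Myh2 was higher relative to Myh4 in p95HER2 at both times. The log2 ratio was -4.64, -4.15 and -2.99 in FL-HER2 day 10 and -4.08, -3.38 and 1.06 in p95HER2 day 10 (difference of means 1.32, n = 10 and 9, exact permutation test, adjusted p = 0.0403). At day 22 it was -4.49, -3.90 and -2.87 in FL-HER2 and -3.58, -3.18 and -2.1 in p95HER2 (0.93, n = 9 and 9, exact permutation test, adjusted p = 0.0150). The groups overlapped at both times. The day 10 call ended without the libraries with high skin markers (0.68, exact permutation test, adjusted p = 0.0767) and without any 1 of FL-HER2 day 10 replicates 1 to 8 or p95HER2 day 10 replicates 3, 4, 7 and 9 (adjusted p 0.0563 to 0.0862), and without replicate 3 of p95HER2 day 10 the difference was 0.85. The slow to fast ratio Myh7 to Myh4 was -4.88 to -4.09 in FL-HER2 day 10 and -4.59 to -4.03 in the 6 p95HER2 day 10 libraries with enough reads, and its difference of 0.10 did not pass (n = 10 and 6, exact permutation test, adjusted p = 0.583). In reads per length, Myh4 made up a median of 78.6% of the 6 myosin heavy chains in FL-HER2 day 10, 76.4% in FL-HER2 day 22, 54.3% in p95HER2 day 10 and 65.2% in p95HER2 day 22. Myh1 made up 15%, 16.1%, 35.2% and 23.3% in that order. In p95HER2 day 10, replicates 1, 5, 6 and 10 had 75.5% to 82.4% of Myh4. The others had 7.72% to 66.2%, from only 100 to 2009 myosin heavy chain reads. The log2 ratio of Myh1 to Myh4 did not pass between constructs at day 10 (difference of means 1.63, n = 10 and 9, exact permutation test, adjusted p = 0.116). Nor did it at day 22 (0.61, n = 9 and 10, exact permutation test, adjusted p = 0.360).

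Ratios of the regulators to Ckm do not compare fiber types. The ratio of Cdh15 to Ckm had the largest difference of the 12 pairs at day 10. Its log2 value was -9.27, -8.40 and -5.35 in FL-HER2 and -6.38, -1.30 and 0.43 in p95HER2, with overlap, and the means differed by 5.31 (n = 10 and 9, exact permutation test, adjusted p = 0.00312). This difference restates the day 10 fall of Ckm beside the small change of Cdh15, and is not separate support. The ratios to Ckm of Myod1 (1.28, exact permutation test, adjusted p = 0.123) and Myog (2.43, exact permutation test, adjusted p = 0.116) did not pass. In FL-HER2 the ratio of Myh8 to Myh4 was higher at day 22 than at day 10, by 3.03 (n = 8 and 10, exact permutation test, adjusted p = 0.0174), and did not pass with at least 50 reads of both genes (adjusted p = 0.0601).

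**Figure D5:**
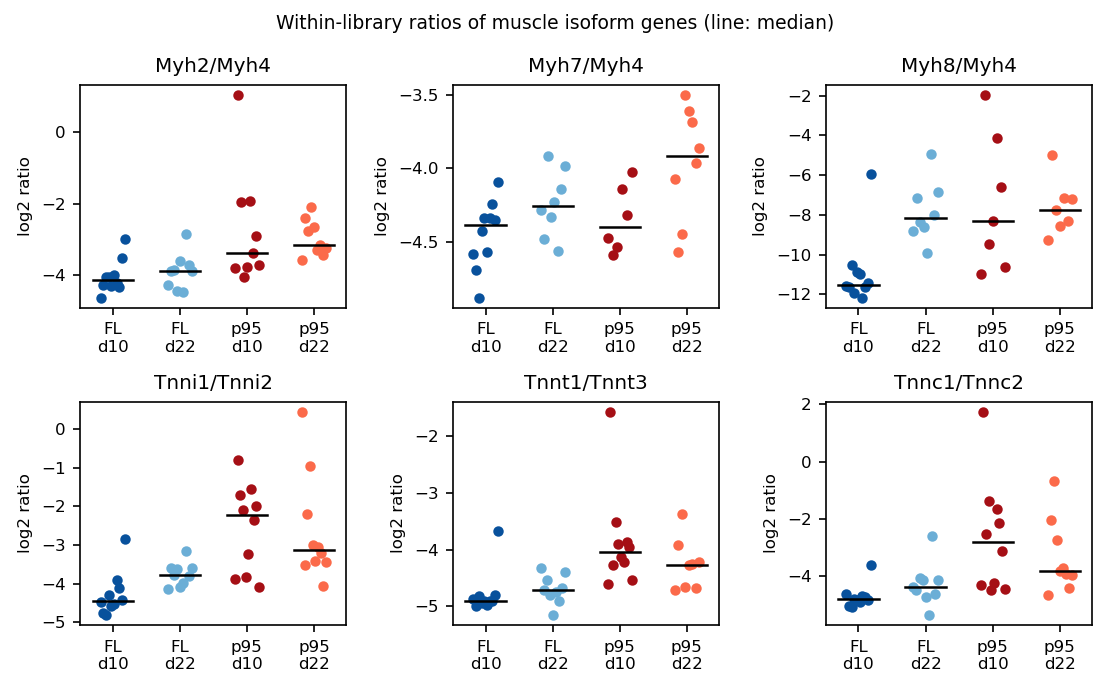
Log2 ratios of 6 pairs of muscle genes within each library with at least 10 reads of both, by group, with a line at the median. The Tnni1 to Tnni2 ratios of p95HER2 day 10 run from -4.08 to -0.81 against -4.81 to -2.86 in FL-HER2 day 10, and the Myh7 to Myh4 ratios of these groups overlap.

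Over time, 30 of the 50 genes fell in FL-HER2 tumors from day 10 to day 22, where 30.6% of all genes were lower, and 0 rose, where 20.7% did (51.4% in either direction). The median log2 change was -2.56, and 43 genes had an unadjusted p under 0.05. No gene of the 50 had groups that did not overlap, which 6.89% of all genes had with day 22 lower and 2.78% with day 22 higher. The called genes were 7 of 14 fast, 7 of 10 slow, 5 of 10 shared sarcomere, 6 of 7 metabolic, 1 of 3 membrane and 1 of 3 embryonic genes and all 3 tested regulators. Of the fast genes, Myh1 (-2.22 ± 0.95, adjusted p = 0.0481) and Tnni2 (-2.79 ± 1.13, adjusted p = 0.0364) fell. Myh4 (-2.56 ± 1.42), Myh2 (-2.41 ± 1.12), Tnnt3 (-2.77 ± 1.23), Tnnc2 (-2.88 ± 1.25) and Atp2a1 (-2.63 ± 1.27) did not pass, with changes of like size. Of the slow genes, Tnni1 (-2.26 ± 0.79, adjusted p = 0.0154), Tnnc1 (-2.45 ± 0.71, adjusted p = 0.00433) and Casq2 (-2.39 ± 0.59, adjusted p = 0.000822) fell, while Myh7 (-2.93 ± 1.67) and Mybpc1 (-2.36 ± 1.04) did not pass. Ldb3 (-2.03 ± 0.59, adjusted p = 0.00429), Mb (-2.09 ± 0.50, adjusted p = 0.000581), Popdc2 (-2.96 ± 0.74, adjusted p = 0.00104), Actc1 (-3.06 ± 0.75, adjusted p = 0.000762), Myod1 (-2.60 ± 0.85, adjusted p = 0.0100) and Myog (-1.85 ± 0.72, adjusted p = 0.0311) fell. Acta1 (-2.65 ± 1.16), Ttn (-2.25 ± 1.10), Ckm (-2.76 ± 1.38), Ryr1 (-2.10 ± 0.96), Cacna1s (-2.29 ± 1.05), Myh3 (-0.76 ± 0.79) and Myh8 (0.15 ± 0.70) did not pass. The call of Tnni2 ended without any 1 of FL-HER2 day 10 replicates 2, 3, 4, 6 and 9 or FL-HER2 day 22 replicates 6 and 7 (adjusted p 0.0508 to 0.0886). That of Myog ended without FL-HER2 day 10 replicate 6 or FL-HER2 day 22 replicate 9 (0.0521 to 0.0535), and that of Myh1 ended without any 1 of 21 of the 39 libraries (adjusted p up to 0.0814).

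The number of genes that fell in FL-HER2 depended on the fit. A fit on only the FL-HER2 groups called 48, where 29.8% of all genes were lower and 19.5% higher, and voom on the reads called 46, where 21.6% were lower and 35.1% higher. A rank-sum test per gene called 48, where 47.7% of all genes were called in either direction (35.2% at day 10). Without the libraries with high skin markers 44 were called, where 30.1% were lower and 20.6% higher, and with the digits term 2 (Cdh15 and Mb), where 14.0% were lower and 7.60% higher. The count was 18 without FL-HER2 day 10 replicate 3, 17 without replicate 4, 16 without replicate 6 and 18 without replicate 9, and it was 17 without FL-HER2 day 22 replicate 6 and 13 without replicate 7. The summed level of the adipocyte genes was 184 to 1627 CPM in FL-HER2 day 10 and 130.8 to 447 CPM in FL-HER2 day 22, and its part in the muscle change was not tested.

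In p95HER2 tumors Cdh15 was the 1 gene of the 50 called over time, lower at day 22, where 18.6% of all genes were lower and 16.6% higher (35.2% in either direction). The median log2 change of the 50 genes was -0.02, but it depended on the libraries. Without those with high skin markers it was -1.56, with Myh4 at -2.23 ± 1.36 (adjusted p = 0.240) and Ckm at -2.02 ± 1.36 (adjusted p = 0.294), and with library weights it was 1.12. With all libraries the changes were 0.71 ± 1.38 for Myh4, -0.33 ± 0.92 for Myh1, 0.11 ± 1.09 for Myh2, -0.09 ± 1.19 for Tnnt3, -0.19 ± 1.10 for Tnni2, -0.02 ± 1.22 for Tnnc2 and 0.28 ± 1.23 for Atp2a1, with adjusted p of 0.741 to 0.992 over the 14 fast genes. Among the slow genes they were 1.28 ± 1.62 for Myh7, -0.27 ± 0.77 for Tnni1, -0.03 ± 0.70 for Tnnc1, -0.05 ± 1.01 for Mybpc1 and -0.31 ± 0.57 for Casq2 (adjusted p 0.588 to 0.979). These lie on both sides of 0, with errors larger than most of the changes. The other named genes had -0.07 ± 1.13 (Acta1), -0.14 ± 1.07 (Ttn), 0.51 ± 0.57 (Ldb3), 0.52 ± 1.34 (Ckm), -0.10 ± 0.48 (Mb), -0.02 ± 0.94 (Ryr1), 0.07 ± 1.02 (Cacna1s), 0.17 ± 0.72 (Popdc2), -0.03 ± 0.73 (Actc1), -0.02 ± 0.77 (Myh3), 0.08 ± 0.68 (Myh8), -0.13 ± 0.83 (Myod1) and -0.60 ± 0.70 (Myog). The day 22 libraries were again spread widely, with replicates 1, 3, 4 and 5 at no more than 0.0207% of reads in the 51 genes and the other 6 at 0.244% to 0.708%. Of these 4, replicates 3 and 4 had high skin markers.

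At day 22, 0 of the 50 genes were called between the constructs by limma, where 1.54% of all genes were lower and 2.98% higher (4.52% in either direction), 0 by voom and 0 by the rank-sum test, and 1 gene had an unadjusted p under 0.05 by limma. The median log2 change was -1.49. The fast genes had -2.27 ± 1.42 (Myh4), -1.66 ± 0.95 (Myh1), -1.29 ± 1.12 (Myh2), -1.93 ± 1.23 (Tnnt3), -1.73 ± 1.13 (Tnni2), -1.86 ± 1.25 (Tnnc2) and -2.14 ± 1.27 (Atp2a1), with adjusted p of 0.374 to 0.593 over all 14. The slow genes had -1.74 ± 1.67 (Myh7), -0.61 ± 0.79 (Tnni1), -0.25 ± 0.71 (Tnnc1), -1.60 ± 1.04 (Mybpc1) and -0.18 ± 0.59 (Casq2). The lowest adjusted p was that of Ttn (-2.28 ± 1.10, adjusted p = 0.266), so that differences of this size were within the spread of these libraries. The other named genes had -1.72 ± 1.16 (Acta1), -0.65 ± 0.59 (Ldb3), -2.11 ± 1.38 (Ckm), -0.51 ± 0.50 (Mb), -1.69 ± 0.96 (Ryr1), -1.76 ± 1.05 (Cacna1s), -0.30 ± 0.74 (Popdc2), -0.41 ± 0.75 (Actc1), -0.14 ± 0.79 (Myh3), -1.03 ± 0.70 (Myh8), -0.51 ± 0.85 (Myod1), -0.59 ± 0.72 (Myog) and 0.09 ± 0.36 (Cdh15).

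The change of the construct effect between days was tested directly, as the day 22 effect minus the day 10 effect. It was higher for 5 of the 50 genes, where 13.5% of all genes were higher and 6.20% lower (19.6% in either direction). The 5 were Actc1 (3.03 ± 1.04, adjusted p = 0.0358), Ldb3 (2.53 ± 0.82, adjusted p = 0.0270), Mb (2.0 ± 0.69, adjusted p = 0.0379), Popdc2 (3.13 ± 1.04, adjusted p = 0.0293) and Slc2a4, the insulin-responsive glucose transporter (3.01 ± 1.03, adjusted p = 0.0357). Leaving out 1 of the 39 libraries ended the call of Actc1 in 11 cases (adjusted p 0.0503 to 0.0618), of Mb in 16 (0.0501 to 0.0628) and of Slc2a4 in 11 (0.0508 to 0.0610), and of Ldb3 and Popdc2 in 0. For Slc2a4 these were FL-HER2 day 10 replicates 4 and 6, FL-HER2 day 22 replicates 7 and 9, p95HER2 day 10 replicates 2, 3, 7 and 8 and p95HER2 day 22 replicates 2, 6 and 9. For Actc1 they were FL-HER2 day 10 replicates 4 and 6, FL-HER2 day 22 replicate 6, p95HER2 day 10 replicates 2, 3, 4, 7 and 8 and p95HER2 day 22 replicates 2, 7 and 8. For Mb they were FL-HER2 day 10 replicates 2, 4 and 6, FL-HER2 day 22 replicates 6 and 7, p95HER2 day 10 replicates 2, 3, 4, 7 and 8 and p95HER2 day 22 replicates 2, 6, 7, 8, 9 and 10. The Actc1, Mb and Slc2a4 calls also ended with no filter on low values, and that of Actc1 with a pseudocount of 0.1. Those of Actc1, Mb, Popdc2 and Slc2a4 ended with voom and with the mean of the other muscle genes as a covariate, while that of Ldb3 did not. Popdc2 had few reads in the p95HER2 day 10 libraries with least muscle RNA. The other named genes, none of which passed, had 3.27 ± 1.98 (Myh4), 1.89 ± 1.32 (Myh1), 2.52 ± 1.56 (Myh2), 2.68 ± 1.71 (Tnnt3), 2.60 ± 1.57 (Tnni2), 2.86 ± 1.75 (Tnnc2), 2.91 ± 1.77 (Atp2a1), 4.20 ± 2.33 (Myh7), 1.99 ± 1.10 (Tnni1), 2.41 ± 1.0 (Tnnc1), 2.31 ± 1.45 (Mybpc1) and 2.09 ± 0.82 (Casq2). Likewise Acta1 (2.58 ± 1.61), Ttn (2.11 ± 1.53), Ckm (3.28 ± 1.92), Ryr1 (2.08 ± 1.34), Cacna1s (2.36 ± 1.46), Myh3 (0.74 ± 1.11), Myh8 (-0.08 ± 0.98), Myod1 (2.47 ± 1.18), Myog (1.24 ± 1.01) and Cdh15 (-0.79 ± 0.51) did not pass. No gene was called with the digits term, where only 130 of all 13650 genes were higher and 103 lower, so that 0 of the 50 is not particular to the muscle genes. Nor was any called without the libraries with high skin markers, where 8.73% of all genes were higher and 3.42% lower. With library weights 37 were called, where 21.1% were higher and 12.4% lower. The count was 8 without FL-HER2 day 10 replicate 10 or p95HER2 day 10 replicate 1. It was 2 or 3 without any 1 of FL-HER2 day 10 replicates 4 and 6, FL-HER2 day 22 replicates 6 and 7, p95HER2 day 10 replicates 2, 3, 4, 7 and 8 and p95HER2 day 22 replicates 2, 6, 7, 8 and 9.

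With the mean of the other muscle genes as a covariate, changes are relative to the other muscle genes in each library. At day 22 that fit called 3 of the 50 genes lower (Myom2, Neb and Ttn), where 1.37% of all genes were lower and 3.09% higher. Over time in FL-HER2 it called 25 higher and 5 lower, where 16.8% of all genes were higher and 25.8% lower. Over time in p95HER2 it called 1 higher and 2 lower, where 17.4% were higher and 19.7% lower. For the change between days it called 1 higher and 11 lower, where 9.22% were higher and 3.93% lower.

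In the libraries with least muscle RNA some of the genes were still read. In p95HER2 day 22 replicate 1, where the 51 genes took 0.00322% of reads, 10 genes had no read and 9 were at 1 CPM or more. The highest were Ldb3 at 7.04 CPM, Mb at 6.09 CPM and Eno3, the muscle enolase, at 3.38 CPM. In p95HER2 day 10 replicate 2, with 0.00681%, 16 genes were at 1 CPM or more, among them Mb at 15.6 CPM and Cdh15 at 10.0 CPM, while Myh4 was at 0.227 CPM.

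Of 62 further muscle genes of fiber structure, membrane, metabolism and regulation, 56 were tested, and 54 were lower and 1 higher in p95HER2 at day 10, beside the 26.1% and 15.2% of all genes. Des, the desmin filament that links sarcomeres, was at 710.4 (31.2 to 1225) CPM in FL-HER2 day 10 and at 26.0 (5.46 to 429) CPM in p95HER2 day 10, with overlap (-3.23 ± 0.84, adjusted p = 0.00217). Cryab, a chaperone that other tissues also make, had a log2 change of -1.38 ± 0.31, adjusted p = 0.000491, and Jph2, which ties the membrane to the calcium store, of -2.87 ± 0.66, adjusted p = 0.000637. Srl, a calcium-binding protein of that store, had -2.0 ± 0.33, adjusted p = 7.84e-06, and Pfkm, the muscle phosphofructokinase, -1.85 ± 0.34, adjusted p = 5.03e-05. Gys1, the muscle glycogen synthase, had -0.24 ± 0.08, adjusted p = 0.0199, and Mef2c, a myogenic transcription factor that endothelium also makes, -0.74 ± 0.18, adjusted p = 0.00105. Megf10, a receptor of muscle stem cells that other cells also make, was the gene that was higher, at 28.9 (18.7 to 42.8) CPM in FL-HER2 day 10 and 61.8 (34.4 to 80.7) CPM in p95HER2 day 10 (0.96 ± 0.15, adjusted p = 2.49e-06). In FL-HER2, 42 of the 56 were lower at day 22, beside 30.6% of all genes.

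Outside the lists, the 10 tested genes whose log2 values followed the mean of the tested muscle genes most closely across the 39 libraries were Eef1a2 (Spearman rho 0.997), Mypn, Myadml2, Tpm2, Trim72, Cap2, Fbxo40, Sypl2, Ndrg2 and Hfe2 (0.985). The median level of Eef1a2 was 186 CPM in FL-HER2 day 10, 23.2 in FL-HER2 day 22, 3.77 in p95HER2 day 10 and 26.6 in p95HER2 day 22.

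Markers of other cell types were measured beside the muscle genes, and their counts at day 10 stand beside the 26.1% of all genes that were lower and the 15.2% that were higher. Of 10 cardiac markers, Myh6, Nppa, Myl7, Ryr2, Pln, Mybpc3 and Tnni3 were below 1 CPM in every library. Tnnt2, the cardiac troponin T, was at 6.07 (4.04 to 8.23) CPM in FL-HER2 day 10 and at 30.8 (22.1 to 47.9) CPM in p95HER2 day 10, and these groups did not overlap (2.36 ± 0.19, adjusted p = 4.99e-12). The other cardiac marker that was tested, the atrial myosin light chain Myl4, was at 3.14 (2.32 to 5.72) and 2.13 (1.65 to 12.2) CPM, with overlap, and did not pass (-0.37 ± 0.29, adjusted p = 0.312). Nppb, a natriuretic peptide, was not tested, and was at 0 (0 to 0.144) and 1.12 (0.333 to 2.12) CPM. Of 11 tested adipocyte genes 6 were lower in p95HER2 at day 10, and the list's summed level was 184 to 1627 CPM in FL-HER2 day 10 and 38.1 to 387 CPM in p95HER2 day 10. Of 7 endothelial genes 6 were lower. Of 9 tested smooth muscle genes 3 were lower and 2 higher, with a summed level of 227 to 411 CPM in FL-HER2 day 10 and 241 to 495 CPM in p95HER2 day 10. Of 8 Schwann cell genes 4 were lower and 1 higher, and of 5 tested tendon genes 2 were lower. Of 5 tested skin genes 0 were called at day 10 by limma and 0 had an unadjusted p under 0.05, with a summed level of 5.75 to 599.7 CPM in FL-HER2 and 4.48 to 401 CPM in p95HER2. The part of these cell types in the muscle result was not tested.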

How the data were processed

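RNA was extracted with a column kit and made into directional poly(A) libraries, per the labels' protocols. Reads were aligned to mm10 with STAR 2.4.2a, and DESeq2 is also named, per the submitters' processing notes, which state neither a strand setting nor the DESeq2 version. The deposited log2 values were found to be log2(read count / size factor + 1) as the authors made them, although the table is called CPM: all values (100%, tolerance 0.001 reads) gave whole reads once each library's step was found. CPM were computed from those reads.

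Libraries were grouped by the construct and day in their titles, and all mapped to a column; the digits term uses the number in the column name. The members, the lists and the tests were chosen with earlier results of these data known. Genes were tested if 9 libraries or more had 1 CPM or more, which 13650 did, and their deposited log2 values were fitted with limma 3.58.1 in R 4.3.3 (1 coefficient per group over 39 libraries, empirical Bayes with trend), with Benjamini-Hochberg adjustment over all tested genes, so fold changes of low genes are understated. Log2 ratios of gene pairs (after adding 1 to both normalized counts) were compared by exact permutation where a group had under 10 libraries and otherwise with 100000 resamples (Python 3.11.15, numpy 2.4.6, pandas 2.3.3, scipy 1.17.1). The code was tested on simulated data. 0 pairs of libraries held identical values.

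Values are given for 19 preselected genes and, in each of 7 roles, for those with the largest and smallest day 10 change and the highest level per length, 27 in all. Of each list of other muscle genes the 2 with the highest mean CPM are named, with Megf10, Tnnt2, Myl4 and Nppb added after their values were seen. Gene lengths came from GENCODE M21. Alternatives were other pseudocounts, filters, scalings and tests, covariates, and leaving out each library.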

Additional observations from a re-analysis of the deposited data

Results flagged for a closer look

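In 27 of 108 checks of 27 named genes in 4 groups, the highest or lowest library stood apart from the rest of its group by Dixon's criterion. Chance gives about 1 in 20 for a single check. Most of these genes follow each other across libraries, so the checks are not independent and their number cannot be set against that rate. Replicate 10 of FL-HER2 day 10, the library of that group with least muscle RNA and with high skin markers, was the lowest for 22 genes. Its log2 values were 10.55 for Myh4, 10.03 for Myh1, 7.562 for Myh2, 9.809 for Tnnt3, 8.198 for Tnni2, 8.539 for Tnnc2 and 10.89 for Atp2a1 among the fast genes. Among the slow genes they were 6.454 for Myh7, 5.341 for Tnni1, 4.913 for Tnnc1, 4.845 for Casq2 and 7.669 for Mybpc1. The others were 11.39 for Acta1, 8.45 for Ttn, 8.245 for Ldb3, 3.894 for Actc1, 2.988 for Myod1, 4.773 for Cdh15, 10.12 for Ckm, 6.136 for Cacna1s, 8.481 for Ryr1 and 3.596 for Popdc2.

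Replicate 7 of FL-HER2 day 22, also with high skin markers, was the lowest of its group for Myh4 (log2 value 9.455), Myh7 (0) and Casq2 (2.414). Replicate 8 of FL-HER2 day 22 was the highest of its group for Myog (5.748), and replicate 6 of p95HER2 day 22 was the highest for Pax7 (2.832).

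The effect of p95HER2 differed between the days by the test of the difference for Actc1 (log2 3.034), Ldb3 (2.534), Mb (1.997) and Popdc2 (3.134), all of which lost the call without the libraries with high skin markers (adjusted p 0.0815 to 0.138).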

How the results depend on the processing

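No paired analysis was possible because the labels give no pairing of the tumors and the replicate numbers, given in accession order, pair nothing. The cause of each change below was not tested.

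Of the 50 muscle genes, 48 were called at day 10, 0 at day 22, 30 over time in FL-HER2, 1 over time in p95HER2, and 5 for the change of the construct effect between days. With the mean of the other muscle genes as a covariate these were 5, 3 (Myom2, Neb and Ttn), 30, 3 and 12 genes. Without the libraries with high skin markers 12 were called at day 10 and 0 for the change between days. The digits term, and likewise only the FL-HER2 day 10 libraries with 3-digit numbers, left 3 at day 10, 2 over time in FL-HER2 and 0 for the change between days. Over time in FL-HER2 voom called 46, and the fit on only the groups compared and the rank-sum test 48 each. Library weights called 2 over time in p95HER2 (Cdh15 and Myh7), where 2788 of all 13650 genes were higher and 3069 lower. For the change between days the count was 2 with no filter, where 1683 of 20520 genes were higher and 742 lower. With a filter at 5 CPM it was 3, where 1480 of 11597 were higher and 778 lower. On log2(CPM + 1) it was 10, where 1558 of 13650 were higher and 1220 lower. With voom it was 1, where 1309 of 13650 were higher and 1082 lower. With library weights it was 37, where 2885 of 13650 were higher and 1692 lower. The rank-sum test and the fit on only the groups compared cannot give that change. Leaving out 1 library gave 46 to 48, 0 to 0, 13 to 45, 1 to 1 and 2 to 8 in the same order of comparisons.

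With the covariate, day 10 log2 changes turned positive for Myh4 (0.37), Myh1 (0.31), Myh2 (0.84), Myh7 (0.77), Myh3 (1.42), Myh8 (1.21), Acta1 (0.59), Ckm (0.31), Ttn (0.28), Tnni1 (0.66), Tnni2 (0.48), Tnnc1 (0.17), Tnnc2 (0.55), Atp2a1 (0.29), Myod1 (0.36), Myog (0.67), Tnnt3 (0.56), Casq2 (0.096), Mybpc1 (0.54), Cacna1s (0.36) and Ryr1 (0.32), which are all 21 of the 26 tested named genes that changed sign (40 of all 50). Over time in FL-HER2, 16 of the 26 changed sign (37 of 50): among called genes Myh1 (0.49), Tnni1 (0.026) and Tnni2 (0.58), and among the others Myh4 (1.57), Myh7 (1.78), Myh2 (0.85), Myh3 (0.86), Acta1 (0.78), Atp2a1 (1.1), Cacna1s (0.85), Ckm (1.23), Mybpc1 (0.76), Ryr1 (0.77), Tnnc2 (0.81), Tnnt3 (0.86) and Ttn (1.02). At day 22, 12 of the 26 changed sign, over time in p95HER2 0, and for the change between days 17.

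Of the gene pairs, 5 had a different ratio at day 10, 1 at day 22, 1 over time in FL-HER2 and 0 over time in p95HER2. With no read minimum 9 were called at day 10 and 3 at day 22, and with at least 50 reads 3 at day 10, 2 at day 22 and 2 over time in p95HER2. A pseudocount of 0.1 gave 2 at day 22. Without the libraries with high skin markers 4 were called at day 22 and 3 over time in FL-HER2. Leaving out 1 library gave 4 to 9, 1 to 3, 1 to 5 and 0 to 1. Without replicate 10 of FL-HER2 day 10 the counts were 9 at day 10 and 5 over time in FL-HER2, and without replicate 2 of p95HER2 day 22 the day 22 count was 3.

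Over the single-gene results at day 10, the called single genes of the other comparisons and the called pairs, 2375 alternatives kept direction and call, 211 kept the direction and lost the call, and 24 reversed. Most of these alternatives leave out a single library and so share nearly all data with the main fit. All that reversed had the mean of the other muscle genes as a covariate. Reads below 10 limit the regulators, the embryonic genes and others such as Popdc2 in the libraries with least muscle RNA.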
